A study of Mus musculus with 16 samples.

Results

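The 38 genes described here are markers of the cells that build brain vessels. They comprise 28 genes of endothelial cells, which line the vessel, 8 genes of mural cells, which wrap it (5 of pericytes and 3 of smooth muscle), and 2 genes found in both lineages. The genes were listed by symbol as markers of these cells, and all 38 were found among the 24421 gene symbols of the count files. All 38 also passed the filter on low counts, together with 13525 other genes, so 13563 genes were tested.

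Striatal RNA (the striatum receives the cortical input to the basal ganglia) had been sequenced in 16 mice aged 13 months, with 4 mice in each of 4 groups. Con+Con mice had the control genotype and received the control virus, and Con+Foxp2 mice had the control genotype and received a virus for Foxp2, a forkhead transcription factor. BACHD+Con and BACHD+Foxp2 mice carried the BACHD transgene, in which an artificial chromosome brings mutant human huntingtin as a model of Huntington disease, and received the same viruses in the same order. All 16 mice were therefore injected with a virus, and the sources used here give no serotype, promoter, infected cell type or interval from injection to harvest. The libraries held 2660395 to 3669748 reads on genes (median 3014099.5), and 1 read was worth 0.273 to 0.385 CPM, reads scaled to a common library total. Foxp2 itself stood at 118 ± 26.7 CPM (SD, n = 4) in Con+Con, 4010 ± 431 in Con+Foxp2, 119 ± 28.6 in BACHD+Con and 1600 ± 288 in BACHD+Foxp2. The Foxp2 level behind the virus comparison was thus higher in control than in BACHD mice. The labels state neither batches nor whether mice were littermates. The p-values therefore measure only the spread between mice within groups, estimated together over all 16 libraries.

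Endothelial cells of the brain seal the blood-brain barrier with tight junctions, import glucose and lipids through dedicated carriers, and expel foreign compounds through ATP-driven pumps. Pericytes sit in the capillary basement membrane and are recruited by endothelial PDGF signalling, and smooth muscle cells surround arterioles. Vessels are a minor part of striatal tissue, so their transcripts are diluted by those of neurons and glia.

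The levels of the members were first compared with one another per kilobase of exon, to allow for differences in gene length. The length took all annotated exons of a gene together, and the annotation used in counting was not given, so the ranks are approximate. Bsg (basigin, a membrane glycoprotein of barrier endothelium) stood highest at 216 ± 52.1 CPM per kb (SD over 16 libraries), followed by Sparc (osteonectin, a secreted matrix glycoprotein) at 60.2 ± 15.4 and Tjp1 (the tight junction scaffold ZO-1) at 32 ± 1.96. These leading 3 genes are also transcribed by other brain cells: Bsg by choroid plexus and neurons, Sparc by glia, and Tjp1 by many cell types. Vtn (vitronectin, a matrix protein made by pericytes) at 19.5 ± 3.09 and Slc2a1 (the glucose carrier GLUT1) at 19.2 ± 3.35 came next and could not be told apart within their spread. At the low end, Anpep, Sox17 and Emcn lay at 1.08, 1.05 and 1.03 CPM per kb, closer to one another than the spread of any of them. The median member had 4.52 CPM per kb, against 6.01 for the 13087 tested genes with a known length, and 13 of 38 members were above that median.

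**Figure D1:**
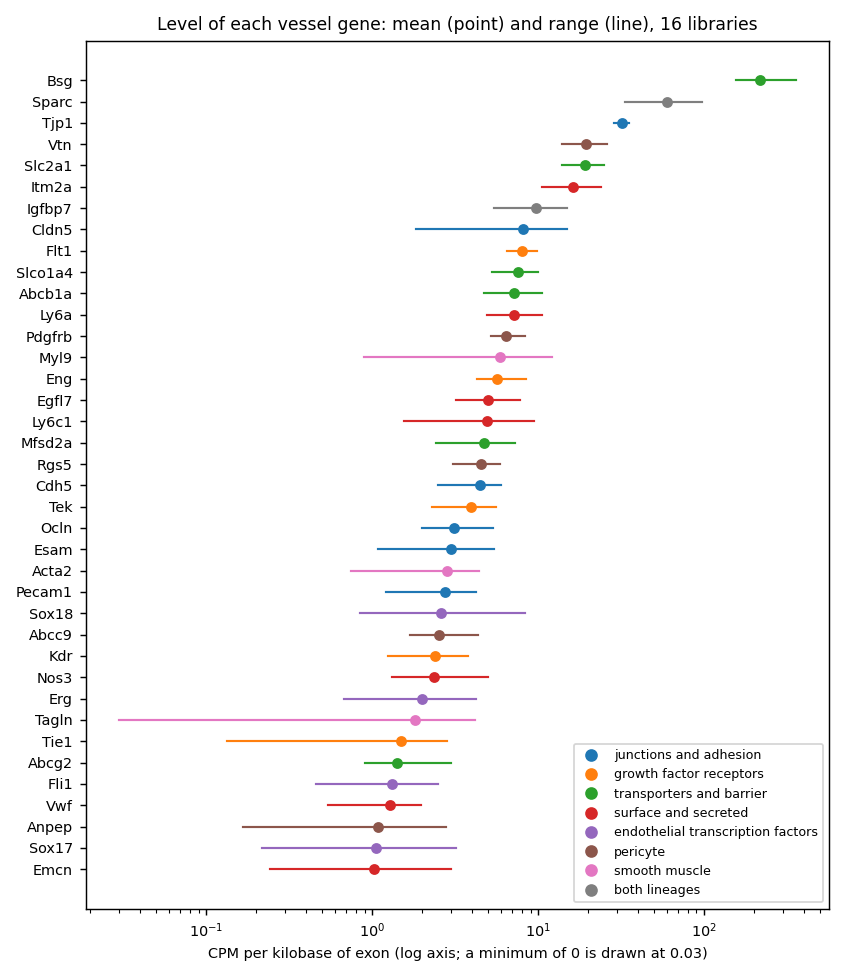
Mean level (point) and lowest to highest library (line) of each of the 38 vessel genes in CPM per kilobase of exon, on a log axis, over 16 libraries, coloured by role. Bsg, Sparc and Tjp1 lead, and Tjp1 has the shortest line on this log axis (28.5 to 35.2), while Tagln runs from 0 to 4.16.

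The spread within groups differed widely between the genes. The SD of log2 CPM within groups was 0.08 for Tjp1, with a mean of 758 reads per library, and 0.90 for Emcn (endomucin, a sialomucin of capillary and venous endothelium), with 16.5 reads. The median over members was 0.43, against 0.22 from counting error alone, and for 3 members the SD was under 1.5 times the counting error. Among the 38 members, 14 had a mean of under 30 reads per library. In 13 of the 14 the SD was 1.54 to 2.33 times the counting error, and the exception was Ly6a (0.33 against 0.28).

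The vessel genes were summarised per library as the mean log2 CPM of the 28 endothelial genes, and separately of the 8 mural genes. How closely these means follow vessel content was not tested. The endothelial mean was 4.23 ± 0.11 (SD, n = 4) in Con+Con, 4.07 ± 0.15 in Con+Foxp2, 4.11 ± 0.13 in BACHD+Con and 4.24 ± 0.10 in BACHD+Foxp2. All 16 libraries lay between 3.95 and 4.36, a span of 0.41 log2 units, and the 4 groups overlapped. The size of a group difference depended on the summary. Con+Foxp2 minus Con+Con was -0.15 by the mean and -0.34 by the median gene level in each library. BACHD+Foxp2 minus Con+Foxp2 was 0.16 and 0.31. Medians of the 28 genes' own fitted log2 fold changes were -0.14 and 0.15, close to the differences of the mean. In bulk tissue, fewer vessel cells and less vessel RNA per cell cannot be told apart in such a mean.

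Library by library, the endothelial means of Con+Con were 4.29, 4.09, 4.21 and 4.32, and those of Con+Foxp2 were 3.98, 4.07, 4.29 and 3.95. In BACHD+Con they were 4.04, 4.31, 4.06 and 4.04, and in BACHD+Foxp2 4.36, 4.11, 4.24 and 4.24. The high BACHD+Con library, mouse 2, also had the largest sum of 7 choroid plexus markers of all 16 libraries (13900 CPM, against 407 in the lowest library). Without it, the endothelial difference between BACHD+Foxp2 and BACHD+Con was 0.19 instead of 0.13 log2 units.

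The mural mean varied more: 3.83 ± 0.22 in Con+Con, 3.54 ± 0.21 in Con+Foxp2, 3.54 ± 0.24 in BACHD+Con and 3.41 ± 0.29 in BACHD+Foxp2. The 16 libraries spanned 1.08 log2 units, from 3.06 to 4.15, and all 4 groups overlapped. The SD over all libraries was 0.27, of which counting error alone gives 0.12, whereas the endothelial mean had an SD of 0.13 with 0.05 from counting. Some mural values depended on how the genes were summarised. With the mean of the gene levels in each library, BACHD+Foxp2 minus BACHD+Con was -0.13 log2 units, and with the median of those levels 0.23. Likewise BACHD+Foxp2 minus Con+Foxp2 was -0.14 by the mean level and 0.29 by the median level. The median level depends on which genes rank in the middle of the 8. Medians of the genes' own fitted log2 fold changes were -0.05 and 0.00 in these comparisons.

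**Figure D2:**
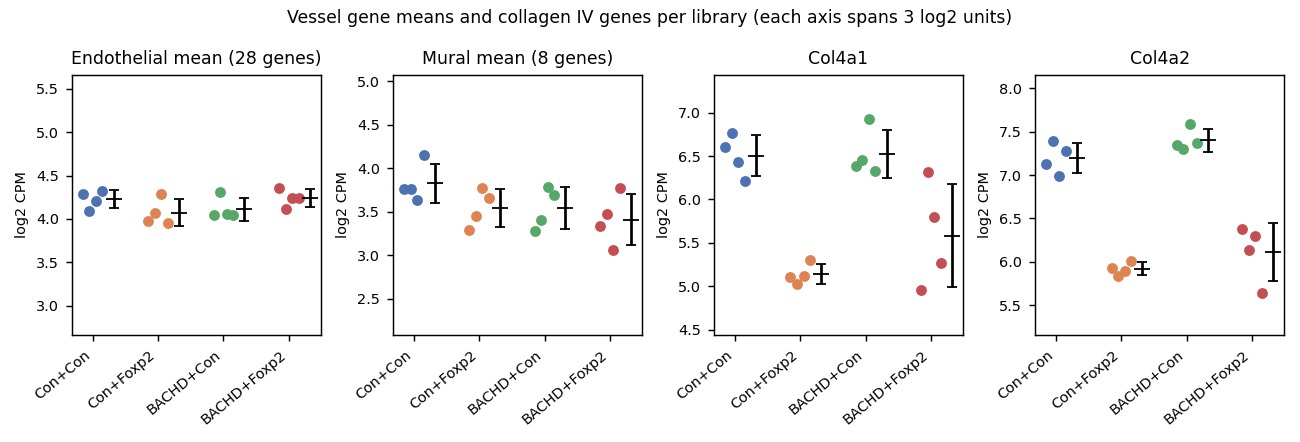
Mean log2 CPM of 28 endothelial genes and of 8 mural genes, and log2 CPM of Col4a1 and Col4a2, in each library (points) by group, with mean and SD over 4 mice (bars); all 4 axes span the same number of log2 units. The endothelial mean stays between 3.95 and 4.36 in every library, while both collagen genes are lower in Con+Foxp2 than in Con+Con in every library.

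Single vessel genes were only weakly correlated with each other. Within groups, the mean correlation between pairs of endothelial genes was 0.05, with 210 of 378 pairs above 0, and between pairs of mural genes it was 0.07, with 18 of 28 pairs above 0. The mean over all tested genes was 0.00. These are descriptions over 16 libraries whose points share depth and dissection. The endothelial and mural means of the same libraries had a Pearson r of 0.15 and a Spearman rho of 0.19.

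**Figure D3:**
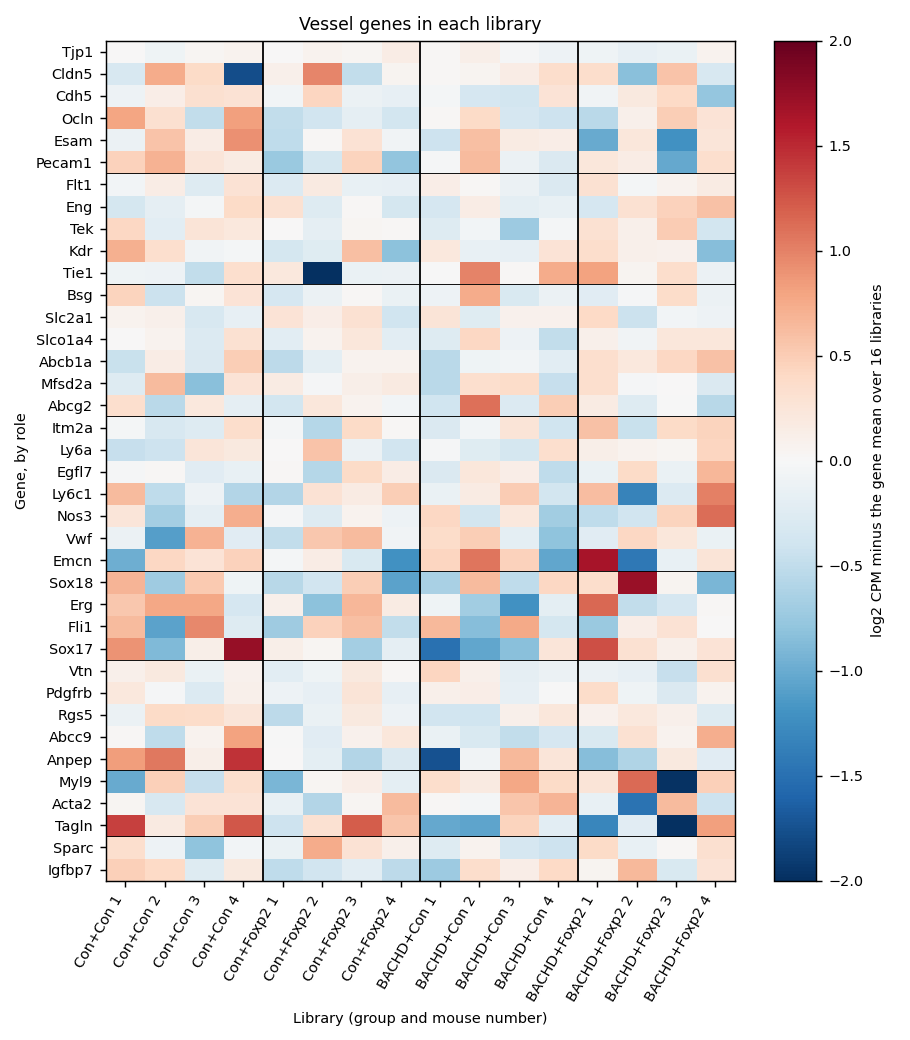
Each vessel gene (rows, ordered by role) in each library (columns, by group), as log2 CPM minus that gene's mean over 16 libraries; colours are limited to 2 log2 units either way. No column is of 1 colour throughout, and Tjp1 is nearly flat in all libraries.

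Each member was then tested in 7 comparisons, with p-values adjusted by Benjamini-Hochberg over all 13563 genes. None of the 38 passed an adjusted p under 0.05 in any comparison with edgeR's quasi-likelihood test, nor with DESeq2. In control mice, the contrast of Foxp2 virus and control virus gave 0 of 38 members, where 0.229% of all tested genes were called. At an unadjusted p under 0.05 there were 4 members with edgeR and 3 with DESeq2, and 7.04% of all genes with edgeR. Shares of all genes called or under an unadjusted p are those of edgeR throughout. The same contrast in BACHD mice gave 0 of 38 members, against 0.243% of all genes, and 3 members with either tool at an unadjusted p under 0.05, against 7.73% of all genes.

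Genotype gave fewer differences over the whole transcriptome. Under the control virus, BACHD against control mice gave 0 of 38 members (0.0147% of all genes called) and 2 members with either tool at an unadjusted p under 0.05 (3.44% of all genes). With the Foxp2 virus in both groups, 0 of 38 members were called (0.059% of all genes), and 1 member with either tool had an unadjusted p under 0.05 (4.18% of all genes). The interaction, which tests whether the virus difference depends on genotype, called 0 of 38 members and 0% of all genes, with 3 members at an unadjusted p under 0.05 in either tool (3.8% of all genes).

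Averaging over the other factor narrowed the intervals. The virus contrast over both genotypes called 0 of 38 members, against 1.05% of all genes, with 2 members at an unadjusted p under 0.05 in either tool, against 10.8% of all genes. The genotype contrast over both viruses called 0 of 38 members, against 0.0369% of all genes, with 1 member at an unadjusted p under 0.05 in either tool, against 4.05% of all genes. Unadjusted counts of 1 to 4 of 38 members thus stood beside 3.44% to 10.8% of all genes.

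The size of difference that the data leave possible varied by gene. For the virus in control mice, 20 of 38 members had a 95% interval within 1 log2 unit (a factor of 2) of no change, and in BACHD mice 21 of 38. For genotype it was 21 of 38 under the control virus and 22 of 38 under the Foxp2 virus. Averaged over the other factor, 31 of 38 members had the virus interval within 1 log2 unit and 30 of 38 the genotype interval. Interval half-widths ran from 0.19 for Tjp1 to 1.49 for Tagln in the virus comparison of control mice, with a median of 0.67. For the remaining members the interval reached past a 2-fold change.

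**Figure D4:**
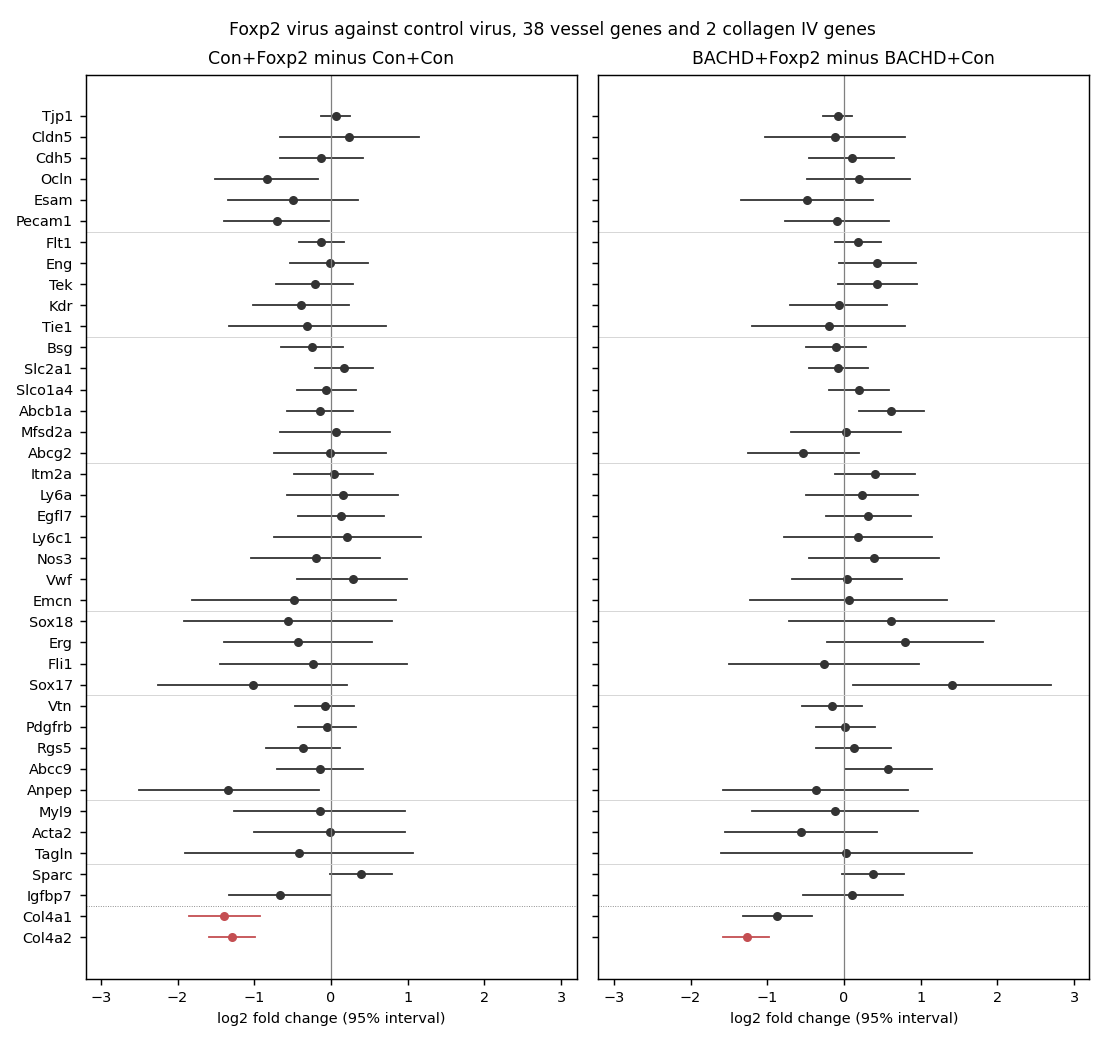
Log2 fold change with 95% interval for the virus contrast, Foxp2 minus control, in control mice (left) and BACHD mice (right), for 38 vessel genes grouped by role and the 2 collagen IV genes below the dotted line; red marks an adjusted p under 0.05. No vessel gene is red, while Col4a2 is red in both panels and Col4a1 in the left.

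In control mice the median log2 fold change of the 38 members with the Foxp2 virus was -0.15, with 28 negative and 10 positive values, beside a median of -0.00 and 50.6% negative values over all tested genes. BACHD mice showed a median of 0.08 with 14 negative and 24 positive values. The BACHD+Con against Con+Con median was -0.10, and the BACHD+Foxp2 against Con+Foxp2 median was 0.14. These 4 comparisons share groups pairwise, so their medians are not independent of each other. On log2 CPM in place of the fitted values the medians were -0.11, 0.07, -0.08 and 0.15, with 27, 17, 27 and 15 of 38 values negative. Of the 8 mural genes, all 8 had negative fitted values with the virus in control mice (median -0.15) and 4 in BACHD mice (median -0.05).

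The junction and adhesion genes hold endothelial cells together: Cldn5 (claudin-5, the main barrier claudin), Ocln (occludin), Tjp1, Cdh5 (VE-cadherin), Pecam1 (the adhesion molecule CD31) and Esam (an endothelial adhesion molecule). With the Foxp2 virus in control mice, 4 of 6 had negative values, with a median log2 fold change of -0.31, and in BACHD mice also 4 of 6, with a median of -0.08.

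Ocln had the lowest p of any member in control mice. Its levels were 22.1, 15.8, 8.68 and 22.7 CPM in Con+Con, against 8.69, 9.49, 10.9 and 9.56 in Con+Foxp2. A single Con+Con mouse, mouse 3, lay as low as the Con+Foxp2 mice, so the groups overlapped. The log2 fold change was -0.84 (SE 0.32, edgeR adjusted p = 0.539), and -1.06 without that mouse (adjusted p = 0.189). In BACHD mice Ocln was at 12.7, 16.5, 9.74 and 9.25 CPM with the control virus and 8.41, 13.4, 17.9 and 15.3 CPM with the Foxp2 virus. These overlapped widely (log2 fold change 0.19, SE 0.32). The interaction for Ocln was 1.03 (SE 0.46, edgeR adjusted p = 1).

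Pecam1 was at 22.4, 26.4, 19.3 and 18.2 CPM in Con+Con mice and 9.34, 12.4, 22.2 and 9.01 CPM in Con+Foxp2. Of the Con+Foxp2 mice, mouse 3 lay inside the Con+Con range and the other 3 below it. The log2 fold change was -0.71 (SE 0.33, edgeR adjusted p = 0.681). BACHD mice had 15.8, 25.4, 14.8 and 13.1 CPM with the control virus and 19, 18, 7.57 and 20.4 CPM with the Foxp2 virus, without separation (log2 fold change -0.09, SE 0.33). On log2 CPM, Pecam1 differed by -0.76 between Con+Foxp2 and Con+Con, and by -0.62 when set against the mean of the other endothelial genes in the same library.

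Claudin-5 varied between mice more than between groups. Cldn5 levels were 8.26, 18, 13.8 and 2.6 CPM in the Con+Con mice, 11.3, 21.3, 7.29 and 10.9 in Con+Foxp2, 10.7, 10.9, 11.8 and 13.5 in BACHD+Con, and 13.5, 5.56, 15.8 and 8.29 in BACHD+Foxp2. Con+Con alone held values from 2.6 to 18 CPM, and every group overlapped every other. The virus log2 fold changes were 0.24 in control mice and -0.12 in BACHD mice, each with an SE of 0.44 (edgeR adjusted p = 0.964 and 0.984). Tjp1, in contrast, stayed between 223 and 275 CPM in all 16 libraries, and its virus log2 fold changes of 0.06 and -0.08 had an SE of 0.09.

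The growth factor receptors were Flt1 and Kdr (VEGF receptors 1 and 2), Tek and Tie1 (the angiopoietin receptor TIE2 and its partner) and Eng (endoglin, a TGF-beta co-receptor). Flt1, the best measured, stood at 87.5 to 132 CPM over all libraries, with virus log2 fold changes of -0.13 and 0.18 (SE 0.14 each). With the virus in control mice all 5 values were negative, between -0.39 and -0.02, and in BACHD mice 3 were positive and 2 negative, between -0.20 and 0.43. None had an unadjusted p under 0.05 in any of the 7 comparisons. The lowest library of the family was Con+Foxp2 mouse 2, with 2 reads of Tie1, or 0.654 CPM.

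Transporters and barrier genes were Slc2a1, Slco1a4 (an organic anion carrier), Abcb1a (P-glycoprotein, the main drug efflux pump of the barrier), Abcg2 (a further efflux pump), Mfsd2a (the carrier of docosahexaenoic acid) and Bsg. In each virus comparison the family had values on both sides of 0, with medians of -0.04 in control mice and -0.02 in BACHD mice.

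Abcb1a was the single member whose 4 BACHD+Foxp2 libraries lay above the 4 libraries of a comparison group. Its levels were 47.9, 43.9, 50.9 and 57.4 CPM in BACHD+Foxp2, against 25.8, 35.7, 36.3 and 32.8 in BACHD+Con. With the lowest BACHD+Foxp2 mouse at 43.9 and the highest BACHD+Con mouse at 36.3, the groups did not overlap. The means were 50 ± 5.71 and 32.6 ± 4.81 CPM (SD, n = 4), 1.53-fold (95% interval 1.14 to 2.06, log2 fold change 0.62, SE 0.21), and edgeR's adjusted p was 0.387. Among all tested genes, 4.14% had no overlap in this comparison, and Abcb1a was 1 of 38 members to do so.

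The Con+Foxp2 levels of Abcb1a were 26.1, 33.1, 39.8 and 39.9 CPM, all below the BACHD+Foxp2 libraries (log2 fold change 0.53, SE 0.20, edgeR adjusted p = 0.998). It was again 1 of 38 members without overlap, beside 3% of all genes. In Con+Con the gene was at 27.7, 41.8, 30.9 and 53.6 CPM, a range that reached into that of BACHD+Foxp2. The interaction was 0.76 (SE 0.29, adjusted p = 1). Relative to the mean of the other endothelial genes, the BACHD+Foxp2 difference from BACHD+Con was 0.50 log2 units. Exons of a predicted gene cover 10.1% of its exon bases, and reads shared with its close copy Abcb1b cannot be assigned with certainty.

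Bsg followed the choroid plexus markers. Its levels were 359, 645, 312 and 355 CPM in BACHD+Con, where the 645 belongs to mouse 2, the library with the largest choroid plexus sum. Across 16 libraries the Pearson r of log2 CPM with the log2 choroid plexus sum was 0.84 for Bsg, 0.14 as a median over the 28 endothelial genes, and 0.55 for the endothelial mean (Spearman rho 0.53). Leaving out the libraries farthest from the median in choroid plexus sum, r for the endothelial mean was 0.42 over the remaining 14. The points share depth and dissection, and the part of choroid plexus RNA in the vessel values was not tested beyond adding it as a covariate, with which 0 of 38 members were called in any comparison.

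The surface and secreted genes were Ly6c1 and Ly6a (membrane-anchored Ly6 proteins of mouse endothelium), Itm2a (a membrane protein), Egfl7 (a secreted matrix factor), Vwf (von Willebrand factor), Nos3 (endothelial nitric oxide synthase) and Emcn. In control mice 5 of 7 virus values were positive, with a median of 0.13, and in BACHD mice all 7 were positive, between 0.04 and 0.40, with a median of 0.24. On log2 CPM the BACHD count was 5 of 7, since Emcn (-0.15) and Ly6c1 (-0.04) were negative. None of the 7 had an unadjusted p under 0.05 in any comparison. Ly6c1 and Ly6a are closely related genes of 1 cluster, and exons of Atg9b and a predicted gene cover 32.3% of Nos3, so their reads are uncertain.

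Endothelial transcription factors had few reads and wide intervals. Sox17 and Sox18 are SOX factors of arterial and lymphatic specification, and Erg and Fli1 are ETS factors that maintain endothelial identity. With the virus the 4 genes had a median log2 fold change of -0.49 in control mice and 0.71 in BACHD mice, and under the control virus the BACHD difference had a median of -0.62.

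Sox17 levels were 8.26, 1.93, 4.5 and 15.3 CPM in Con+Con, against 4.51, 4.25, 2.32 and 3.55 in Con+Foxp2. BACHD mice had 1.03, 1.65, 2.01 and 5.01 CPM with the control virus and 11, 5.24, 4.47 and 5.1 with the Foxp2 virus. The highest BACHD+Con mouse, at 5.01 CPM, lay above only BACHD+Foxp2 mouse 3, at 4.47 CPM, and Con+Con mice spanned most of the whole range. The virus log2 fold change in BACHD mice was 1.41 (SE 0.62, edgeR adjusted p = 0.594), and 1.03 without BACHD+Foxp2 mouse 1. Genotype under the control virus gave -1.62 (SE 0.62, adjusted p = 1), and the interaction was 2.42 (SE 0.86, adjusted p = 1). Leaving out Con+Con mouse 4, at 15.3 CPM, gave -1.03 and 1.84, and leaving out the 3 libraries lowest in cortical markers gave -0.71 and 1.51. The lowest library held 3 reads of Sox17, and exons of a predicted gene cover 16.8% of it.

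Erg was at 9.44, 11.3, 11.3 and 4.84 CPM in Con+Con and at 5.84, 3.63, 2.35 and 5.4 CPM in BACHD+Con. Con+Con mouse 4 lay among the BACHD+Con mice, and the other 3 lay above them. The log2 fold change was -1.10 (SE 0.49, edgeR adjusted p = 1). In Con+Foxp2 the levels were 6.76, 3.27, 10.3 and 7.1, and in BACHD+Foxp2 14.6, 4.25, 4.82 and 6.38, which overlapped.

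Sox18 was at 6.2, 1.93, 5.46 and 3.35 CPM in Con+Con and at 2.25, 2.62, 5.3 and 1.37 CPM in Con+Foxp2. BACHD mice had 2.06, 5.95, 2.35 and 5.01 CPM with the control virus and 4.76, 13.4, 3.78 and 1.59 CPM with the Foxp2 virus. All groups overlapped, and BACHD+Foxp2 mouse 2 stood above every other library. The log2 fold change between BACHD+Foxp2 and Con+Foxp2 was 1.03 (SE 0.65, edgeR adjusted p = 0.998), and 0.22 without that mouse.

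Of the pericyte genes, Pdgfrb (the PDGF receptor that defines the lineage) was steady. Its levels were 40.7, 34.4, 28.9 and 37.6 CPM in the Con+Con mice, 32.5, 31.1, 41.8 and 31.1 in Con+Foxp2, 37.5, 38.3, 31.2 and 34.7 in BACHD+Con, and 45.4, 33.1, 28.6 and 36.7 in BACHD+Foxp2. All 4 groups covered about the same range. The virus log2 fold changes were -0.05 and 0.02 and the genotype values 0.00 and 0.07, each with an SE of 0.18, so a 2-fold difference lay outside all 4 intervals.

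Rgs5 (a regulator of G-protein signalling enriched in pericytes) was at 18.6, 26.7, 26.4 and 24.2 CPM in the Con+Con mice, 13.8, 18.3, 23.2 and 18.8 in Con+Foxp2, 15.5, 15.2, 21.8 and 23.9 in BACHD+Con, and 21.6, 23.6, 21.7 and 16.9 in BACHD+Foxp2. The groups overlapped, and the virus log2 fold changes were -0.37 (SE 0.23) and 0.13 (SE 0.24), with edgeR adjusted p of 0.845 and 0.942.

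Abcc9 (the sulfonylurea receptor SUR2 of vascular potassium channels) was at 20.9, 14.2, 21.5 and 36.5 CPM in Con+Con and 20.3, 17.3, 21.9 and 24 in Con+Foxp2, which overlapped (log2 fold change -0.15, SE 0.27). It was at 18.6, 16.5, 14.4 and 16.2 CPM in BACHD+Con and 16.5, 25.5, 21.7 and 34.4 in BACHD+Foxp2. Mouse 1 of BACHD+Foxp2 lay within the control-virus range and the other 3 above it (log2 fold change 0.58, SE 0.27, edgeR adjusted p = 0.634, and 0.37 without BACHD+Foxp2 mouse 4).

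Anpep (aminopeptidase N, or CD13, a pericyte surface enzyme) was the single member whose groups did not overlap in control mice. It was at 7.38, 8.69, 4.18 and 11.5 CPM in Con+Con, against 3.86, 3.27, 2.32 and 3 in Con+Foxp2. The lowest Con+Con mouse, at 4.18 CPM or 13 reads, lay narrowly above the highest Con+Foxp2 mouse, at 3.86 CPM or 12 reads. The log2 fold change was -1.34 (SE 0.57, edgeR adjusted p = 0.620). Among all tested genes, 5.01% had no overlap in this comparison, against 1 of 38 members. In BACHD mice the levels were 0.687, 3.63, 6.38 and 4.62 CPM with the control virus and 1.83, 2.29, 4.47 and 3.19 with the Foxp2 virus, which overlapped (log2 fold change -0.37, SE 0.59). The mean count was 13.4 reads per library. BACHD+Con against Con+Con gave no member without overlap, beside 2.43% of all genes.

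Smooth muscle genes encode the contractile apparatus: Acta2 (smooth muscle alpha-actin), Tagln (transgelin) and Myl9 (a myosin regulatory light chain). Acta2 was at 5.9, 4.5, 7.07 and 7.07 CPM in the Con+Con mice, 5.15, 3.6, 5.97 and 9.28 in Con+Foxp2, 5.84, 5.62, 8.73 and 9.64 in BACHD+Con, and 5.12, 1.64, 9.29 and 4.15 in BACHD+Foxp2. The groups overlapped, with virus log2 fold changes of -0.02 and -0.56 (SE 0.48 each).

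Tagln was at 8.26, 3.22, 4.18 and 7.44 CPM in the Con+Con mice, 1.93, 3.6, 7.29 and 4.37 in Con+Foxp2, 1.03, 0.991, 4.03 and 2.31 in BACHD+Con, and 0.732, 2.29, 0 and 5.42 in BACHD+Foxp2. Of the BACHD libraries, 3 held 2 or 3 reads and 1 held none, and the groups overlapped. Averaged over the viruses, the genotype log2 fold change was -1.22 (SE 0.54, edgeR adjusted p = 0.999). Exons of Pcsk7 and a predicted gene cover 67.9% of the Tagln exon bases, and no source used here says whether strand was used in counting, so its reads cannot be separated from theirs.

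The genes of both lineages had virus values of opposite sign in control mice. Sparc was at 279, 207, 126 and 213 CPM in the Con+Con mice, 202, 369, 271 and 236 in Con+Foxp2, 186, 233, 174 and 166 in BACHD+Con, and 288, 200, 224 and 275 in BACHD+Foxp2. Averaged over genotypes, the virus log2 fold change was 0.38 (SE 0.14), and its edgeR adjusted p of 0.256 was the lowest of any member in that comparison. In the same comparison the astrocyte markers Gfap (log2 fold change 1.00, SE 0.14, edgeR adjusted p = 0.000269) and Aqp4 (0.72, SE 0.14, adjusted p = 0.00986) rose. Of the 8 astrocyte markers, 5 had positive and 3 had negative values. The part of astrocyte RNA in the Sparc values was not tested.

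Igfbp7 (a secreted IGF-binding protein) was at 15.9, 15.1, 9.32 and 13 CPM in Con+Con, against 7.73, 8.51, 9.61 and 7.64 in Con+Foxp2. Con+Con mouse 3 lay just under the highest Con+Foxp2 mouse, so the groups overlapped (log2 fold change -0.67, SE 0.32, edgeR adjusted p = 0.694). BACHD mice had 6.53, 14.5, 12.4 and 15 CPM with the control virus and 11.7, 18, 8.95 and 13.7 with the Foxp2 virus. Of the BACHD+Foxp2 mice, mouse 3 lay within the Con+Foxp2 range and the other 3 above it (log2 fold change 0.65, SE 0.32, edgeR adjusted p = 0.998).

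**Figure D5:**
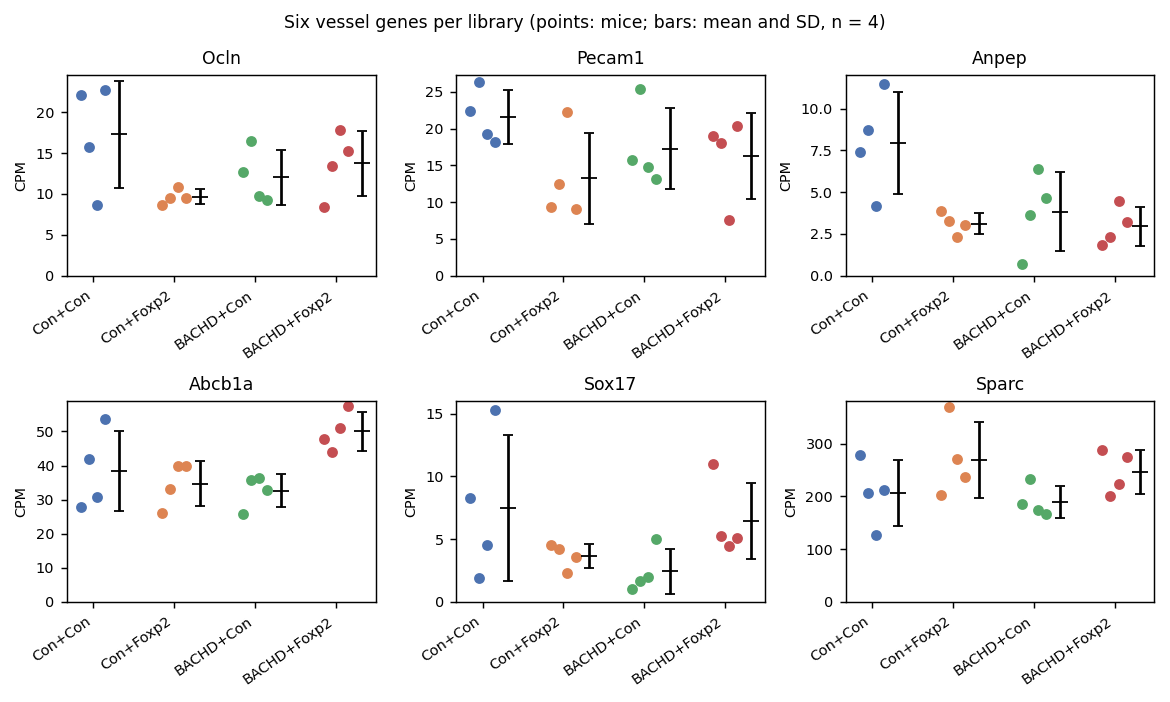
CPM of Ocln, Pecam1, Anpep, Abcb1a, Sox17 and Sparc in each library (points) by group, with mean and SD over 4 mice (bars); each vertical axis starts at 0. Abcb1a in BACHD+Foxp2 (43.9 to 57.4) lies above BACHD+Con and Con+Foxp2, Anpep in Con+Con (4.18 to 11.5) lies above Con+Foxp2 by a narrow margin, and the other genes overlap.

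Genes of vascular signalling outside the 38 were counted in lists by role, beside the same 7 comparisons. Of 13 tested ligands of vascular growth (such as Vegfa, Angpt1 and Pdgfb), 16 genes of barrier Wnt signalling (such as Wnt7a, Reck and Lef1) and 17 Notch and TGF-beta pathway genes (such as Notch3, Acvrl1 and Klf2), none passed an adjusted p under 0.05 in any comparison with edgeR or DESeq2. At an unadjusted p under 0.05, edgeR gave 0, 1 and 1 of them for the virus in control mice, beside 7.04% of all genes. In BACHD mice edgeR gave 1, 0 and 1, beside 7.73% of all genes. DESeq2 gave 0, 1 and 1 of them in control mice and 1, 1 and 1 in BACHD mice. In control mice their virus medians were -0.04, -0.08 and -0.04. The vascular basement membrane list of 11 genes held the only calls. Col4a1 and Col4a2, which encode the alpha-1 and alpha-2 chains of type IV collagen, fell with the Foxp2 virus, and the other 9 (laminins, nidogens, perlecan and fibronectin) did not pass the test in any comparison.

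Col4a2 was at 139, 167, 126 and 154 CPM in Con+Con, against 60.5, 56.6, 59 and 63.9 in Con+Foxp2. BACHD+Con mice had 162, 157, 192 and 165 CPM, and BACHD+Foxp2 mice 82.3, 69.7, 78.1 and 49.1. In both genotypes every Foxp2-virus mouse lay below every control-virus mouse. Col4a2 fell by 1.29 on the log2 scale in control mice (SE 0.14, edgeR adjusted p = 3.15e-05) and by 1.27 in BACHD mice (SE 0.14, adjusted p = 5.36e-05).

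Col4a1 was at 96.5, 108, 85.8 and 73.7 CPM in Con+Con, against 33.8, 32.1, 34.1 and 38.8 in Con+Foxp2, and fell by 1.39 on the log2 scale (SE 0.22, edgeR adjusted p = 0.00411). In BACHD mice it was at 83.2, 86.9, 121 and 79.4 CPM with the control virus and 30.4, 78.9, 55.1 and 38 with the Foxp2 virus. BACHD+Foxp2 mouse 2 was close to the control-virus mice, and the log2 fold change of -0.87 (SE 0.22) did not pass (adjusted p = 0.140). Without that mouse it was -1.18 and passed (adjusted p = 0.0104), and it also passed with DESeq2 (adjusted p = 0.0416) and with no low-count filter (adjusted p = 0.021). It did not pass in the other 14 of 17 alternative settings, among them the fit with only the compared groups (adjusted p = 0.344), the endothelial mean as a covariate (log2 fold change -0.73, adjusted p = 0.301) and the fit without the 3 libraries lowest in cortical markers (-0.68, adjusted p = 0.711). The authors' deposited table gives an adjusted p of 0.121.

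These falls were larger than the shift of the endothelial mean. With the Foxp2 virus that mean went down from 4.23 to 4.07 log2 units in control mice. In BACHD mice it went up from 4.11 to 4.24. Col4a2 minus the endothelial mean of the same library was 2.97 ± 0.23 log2 units in Con+Con and 1.85 ± 0.20 in Con+Foxp2, and 3.29 ± 0.22 in BACHD+Con and 1.87 ± 0.32 in BACHD+Foxp2 (SD, n = 4). In neither genotype did the groups overlap. For Col4a1 the same difference was 2.28 ± 0.32, 1.07 ± 0.22, 2.41 ± 0.31 and 1.35 ± 0.69, with an overlap in BACHD mice. With the endothelial mean as a covariate in the fit, Col4a2 kept log2 fold changes of -1.32 (edgeR adjusted p = 0.00023) in control mice and -1.25 (adjusted p = 0.000442) in BACHD mice. With the same covariate Col4a1 had -1.60 (adjusted p = 0.0012) in control mice and -0.73 (adjusted p = 0.301) in BACHD mice.

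The starts of Col4a1 and Col4a2 lie back to back on chromosome 8 and are shown because these are the vessel-associated genes that fell. The windows run from 250 bases before to 50 after each start (RefSeq, GRCm38.p6), Col4a1 at chr8:11312777-11313076 on the minus strand and Col4a2 at chr8:11312555-11312854 on the plus strand. The 78 bases that both windows share are in capitals, read on opposite strands.
Col4a1: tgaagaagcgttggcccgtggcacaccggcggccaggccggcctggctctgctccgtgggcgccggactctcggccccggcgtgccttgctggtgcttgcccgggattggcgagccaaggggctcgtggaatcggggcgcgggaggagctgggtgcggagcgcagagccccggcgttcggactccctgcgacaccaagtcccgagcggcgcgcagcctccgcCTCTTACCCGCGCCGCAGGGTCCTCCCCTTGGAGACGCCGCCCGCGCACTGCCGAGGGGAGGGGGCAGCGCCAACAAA
Col4a2: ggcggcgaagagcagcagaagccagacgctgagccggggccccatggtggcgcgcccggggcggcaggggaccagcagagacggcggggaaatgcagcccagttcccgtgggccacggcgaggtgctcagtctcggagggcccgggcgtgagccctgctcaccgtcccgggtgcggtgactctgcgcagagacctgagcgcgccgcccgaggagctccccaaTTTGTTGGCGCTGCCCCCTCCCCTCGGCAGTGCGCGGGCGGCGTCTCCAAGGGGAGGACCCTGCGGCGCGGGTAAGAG
Their GC content was 74.0% and 73.7%, against a median of 52.7% over all windows, and 22 exon bases of the annotated genes overlap.

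Start windows were also searched for 4 motifs on both strands, for the 26 members that have a RefSeq window (34 windows in all). The forkhead core TGTTTAC was found in 3.65% of all 32851 windows and in 1 member, Abcb1a, whose RefSeq window lies 93.0 kb from the GENCODE start of the gene. The variant TGTTTGC was found in 5.07% of windows and in 3 of the 34 member windows, all of Anpep or Erg. Erg has 3 windows, and the matches lay 51 and 219 bases before the starts of different ones. The window of Anpep lies 12.8 kb from its GENCODE start. CAGGAAG, an ETS motif, was in 13.3% of windows and in 5 members (Abcg2, Egfl7, Emcn, Erg and Itm2a), and the CArG box, the site of serum response factor, in 1.63% of windows and in Myl9 alone. A match describes letters and shows no binding.

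The windows of Erg and Myl9 are shown as the members whose window at the annotated start holds the forkhead variant and the CArG box. Erg is at chr16:95586544-95586843 on the minus strand, with TGTTTGC in capitals 51 bases before the start, and Myl9 is at chr2:156775214-156775513 on the plus strand, with the CArG box in capitals 161 bases before it (RefSeq, GRCm38.p6).
Erg: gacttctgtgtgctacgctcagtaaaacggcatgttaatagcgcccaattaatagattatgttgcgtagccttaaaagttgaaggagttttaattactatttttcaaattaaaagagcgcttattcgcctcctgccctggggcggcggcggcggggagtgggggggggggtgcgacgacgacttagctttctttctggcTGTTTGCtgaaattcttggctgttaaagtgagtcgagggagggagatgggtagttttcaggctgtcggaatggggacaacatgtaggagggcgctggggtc
Myl9: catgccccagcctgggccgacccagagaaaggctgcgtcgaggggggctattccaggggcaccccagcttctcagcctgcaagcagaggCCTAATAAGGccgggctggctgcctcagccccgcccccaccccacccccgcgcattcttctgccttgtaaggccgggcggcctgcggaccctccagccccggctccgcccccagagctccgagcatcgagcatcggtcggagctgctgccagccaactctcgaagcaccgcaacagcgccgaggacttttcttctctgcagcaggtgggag
Neither gene passed the test in any comparison.

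Markers of other cells were read beside the vessel genes. The 7 choroid plexus markers summed to 581 to 10200 CPM in the Con+Con mice, 479 to 4350 in Con+Foxp2, 411 to 13900 in BACHD+Con and 407 to 6900 in BACHD+Foxp2, so every group held libraries with little and with much of this RNA. With the virus 7 of 7 of them were lower in control mice (median log2 fold change -0.86) and 6 of 7 in BACHD mice (median -0.72), and none passed the test or had an unadjusted p under 0.05. Of 8 astrocyte markers, Gfap, Aqp4 and Slc1a3 rose with the virus averaged over genotypes, while Gja1, Gjb6 and Slc4a4 had values of -0.13, -0.14 and -0.15 that did not pass. Of 12 microglia and macrophage markers, 10 had positive values averaged over genotypes, and Ctss and Lyz2 among them passed the test. The other 2, Cd163 and Mrc1, which mark perivascular macrophages, had values of -0.94 (SE 0.38, edgeR adjusted p = 0.35) and -0.76 (SE 0.41, adjusted p = 0.526). Gfap, an astrocyte filament protein, was at 258 ± 29.2 CPM in the Con+Con mice, 427 ± 83.9 in Con+Foxp2, 207 ± 71.9 in BACHD+Con and 501 ± 123 in BACHD+Foxp2. Aqp4, the water channel of astrocyte endfeet on vessels, was at 119 ± 33.2, 187 ± 30.6, 102 ± 22.1 and 174 ± 49 CPM in the same order.

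Neuronal and oligodendrocyte markers were counted in the same way. All 9 striatal projection neuron markers (such as Drd1, Drd2 and Adora2a) had negative values in both genotypes, with medians of -0.46 in control and -0.23 in BACHD mice. None passed an adjusted p under 0.05, and 7 of 9 had an unadjusted p under 0.05 in control mice (7.04% of all genes) and 0 of 9 in BACHD mice (7.73%). The 8 oligodendrocyte markers were all negative in control mice (median -0.33) and 6 of 8 were positive in BACHD mice (median 0.08), with no calls. Of 9 cortical excitatory neuron markers, 7 were positive in control mice (median 0.37) and 8 in BACHD mice (median 0.78). Lamp5, in the opposite direction to most of that list, fell in BACHD mice (log2 fold change -0.99, SE 0.21, edgeR adjusted p = 0.0465) and averaged over genotypes (-0.74, SE 0.15, adjusted p = 0.00998). The part of these markers in the vessel values was not tested. Perivascular fibroblast markers (6 of 7 tested) and meningeal markers (2 of 5 tested) had no calls. Of 5 blood genes, the 4 haemoglobin genes were listed at 0 in all 16 libraries, and Alas2 did not pass the test.

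The authors' deposited tables cover 3 of the comparisons. In the authors' deposited table for the virus in control mice, 0 of 38 members were under an adjusted p of 0.05, with the lowest value for Anpep (0.323). Over all genes it was 111 of 14918 with an adjusted p. The authors' deposited table for BACHD mice had 0 of 36 members with an adjusted p under 0.05, with the lowest for Abcb1a (0.347), beside 45 of 12340 genes. For genotype under the control virus, the authors' deposited table had 0 of 38 members, all at 1, beside 3 of 18992 genes.

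The genes outside the list whose log2 CPM was most like the endothelial mean over 16 libraries were Iqgap1 (r = 0.81), Nadk2 (0.80), Cpd (0.79), Pla2g5 (0.79) and Gbp2 (0.77), picked as the highest of 13525. Of these, Iqgap1 and Pla2g5 also had an r of 0.83 and 0.71 with the choroid plexus sum. The values describe these libraries, which share depth and dissection.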

How the data were processed

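The data were striatal RNA libraries of 16 mice, grouped by the label text. The authors deposited 1 table of raw read counts per gene for each mouse. Per the submitters' processing notes the tools include STAR 2.4.0, HTSeq and DESeq2, with genome build mm10; annotation and strand setting were not given in the sources used. The authors also deposited 3 tables of log2 fold changes and p-values, used only for comparison with the values below. Reads on lines naming no gene (75.3% to 77.5%) were left out.

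Counts were tested with edgeR 4.0.16 (quasi-likelihood, a mean per group over 16 libraries, 12 residual degrees of freedom, TMM scaling, filterByExpr) in R 4.3.3, two-sided, adjusted by Benjamini-Hochberg over 13563 genes and called under 0.05. DESeq2 1.42.0 was an alternative. Intervals are 95%. Per-library means used log2 CPM with a prior count of 2, with no p. Exon lengths and overlaps came from GENCODE M21 (GRCm38, which is mm10). The procedure was tested on simulated data. All 120 pairs of libraries differed beyond counting error.

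Members and lists were chosen with earlier results of these data known. Genes given in full were the 3 members with the lowest p in each of the 4 simple comparisons, any called member, and Cldn5, Pecam1, Pdgfrb, Rgs5 and Acta2; outside the members, called genes of the lists and the 5 genes most like the endothelial mean. Sparc, Igfbp7 in the virus comparison, Tjp1, Flt1 and Bsg were added after their values were seen. Replicate numbers are only names here: deviations of same-numbered mice correlated at a mean of -0.02.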

Additional observations from a re-analysis of the deposited data

Results flagged for a closer look

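In 3 of 76 groups of 4 mice examined, 1 mouse lay apart from the others: its gap to the nearest mouse, as a share of the group's whole range, passed Dixon's 95% critical value for 4 mice. Chance gives about 1 in 20 such groups. The endothelial mean in BACHD+Con had a ratio of 0.894, with mouse 2 at 4.31 and the others at 4.04 to 4.06 log2 CPM. This mouse also had the largest choroid plexus sum, 13900 CPM, and whether that RNA is part of its vessel values was not tested. Sox17 in BACHD+Foxp2 had a ratio of 0.882, with mouse 1 at 11 CPM and the others at 4.47 to 5.24. Pdgfrb in Con+Foxp2 had a ratio of 0.866, with mouse 3 at 41.8 CPM and the others at 31.1 to 32.5. Without these mice Sox17 had a virus log2 fold change of 1.03 in BACHD mice and Pdgfrb one of -0.17 in control mice, and neither passed the test.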

How the results depend on the processing

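The count of members past the threshold was 0 in all 140 recomputed counts, over other scalings, filters, DESeq2, covariates for the endothelial mean and the choroid plexus sum, and each library left out. The endothelial mean is made of the 28 endothelial members, so with it as a covariate a count of 0 is no independent check for them. With the median gene level in each library in place of the mean, the endothelial difference was -0.34 instead of -0.15 for the virus in control mice. For genotype under the Foxp2 virus it was 0.31 instead of 0.16. The mural difference was 0.23 instead of -0.13 for the virus in BACHD mice, and 0.29 instead of -0.14 for genotype under the Foxp2 virus. Medians of the genes' own fitted log2 fold changes were -0.14, 0.15, -0.05 and 0.00 in the same order. Of 1868 recomputed values of uncalled genes, 114 had the opposite sign. Col4a2 was called in both genotypes under every setting run, and Col4a1 in control mice likewise. Over all genes, calls for the virus in control mice, the virus in BACHD mice and the virus over both genotypes were 31, 33 and 143, against 79, 62 and 234 with DESeq2, 75, 53 and 208 without a filter, and 21, 6 and 61 without the 3 libraries lowest in cortical markers (BACHD+Con mice 2 and 3 and Con+Con mouse 4), a setting chosen after seeing the data, as was the choroid plexus covariate. With only the compared groups in the fit, the virus in BACHD mice gave 19. Genotype under the Foxp2 virus gave 8 calls, and 15 with DESeq2, and the interaction 0, and 3 with DESeq2 or without a filter; genotype over both viruses gave 5, and 8 without a filter. A replicate block on the mouse number gave 0 of 38 members in every comparison and 21, 22, 1, 7, 0, 133 and 4 calls over all genes; same-numbered mice correlated at -0.17 to 0.10, and 0 libraries matched best to their own number. For the 14 members with under 30 reads per library, counting error alone gives an SD of 0.27 to 0.51 log2 units.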
